A study of Mus musculus with 33 samples.

Results

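Donor monocytes that had entered the small intestine (SI) of healthy mice were compared with donor monocytes that had entered the liver of healthy mice, 1 day after transfer. The members were the 4 SI libraries and the 3 liver libraries that the labels assign to non-manipulated recipients, 7 of 33 libraries in the series, and the genes with a value in every library, 57 of the 67 panel genes. Donors were C57BL/6 WT mice, and all recipients, including those of every group named here, were C57BL/6 CCR2-/- mice, which lack a receptor that monocytes use to leave the bone marrow (BM). Monocytes were enriched from donor BM, injected intravenously, and 100 donor cells per library were sorted. Non-manipulated recipients had no surgery. In the manipulated recipients used for comparison below, 5 SI and 2 liver libraries, the small intestine had been handled surgically 1 day before the transfer, which inflames its wall, and per the methods these mice were also anaesthetised and given an analgesic in the drinking water. Spleen and BM of non-manipulated recipients gave 3 libraries each. The labels give no age. They number the mice within each group without stating whether a number was shared across tissues or experiments, so p-values measure the spread between these libraries, which may in part be technical.

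Circulating Ly6C-high monocytes enter tissues continuously and change there into macrophages. In the intestinal lamina propria such cells lose Ly6C, gain MHC class II and the fractalkine receptor CX3CR1, and replace local macrophages throughout life. In the liver most resident macrophages, the Kupffer cells, are of embryonic origin and maintain themselves, and monocytes add to them mainly when places become free. Both organs receive bacterial products, the intestine from its lumen and the liver through the portal vein.

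Levels are given as log2 of the normalised count plus 1, where 1 unit is a doubling, after scaling each library by its house-keeping genes Actb, Gapdh and Rpl19 (geometric mean). Levels of different genes depend on their probes and primers and were not compared with each other. Total counts ranged between 1283497 and 1466732 in SI libraries and between 1284791 and 1424781 in liver libraries. Log2 total count, house-keeping level and positive control level differed by 0.05, -0.04 and 0.19, SI minus liver (exact permutation tests, two-sided, p = 0.4, 0.686 and 0.286). The smallest p that 4 against 3 libraries allow is 0.0571. These tests could not pass a threshold of 0.05, so they do not show that the levels were alike. At least 56 of 57 panel genes stood above the negative control probes in each library. Of the monocyte and macrophage markers Csf1r, Cd14, Cd68, Ccr2, Ly6c1, Fcgr1, Adgre1 and Spi1, all 8 measured of 10 listed were detected throughout, and their summed level lay between 18.16 and 18.54 in SI and between 18.11 and 18.30 in liver. No marker of Kupffer cells, neutrophils, lymphocytes, hepatocytes, epithelium or stroma had a value in every library, so the purity of the sort could not be checked with these genes. In bulk samples fewer cells of a type and less RNA per cell cannot be told apart. CD11c (encoded by Itgax) and CD64 (encoded by Fcgr1) were among the markers that defined the sorted cells in SI. For counting, donor monocytes were defined by CD64, CD11b and Ly6C in SI as well as in liver. The gate by which the liver libraries were sorted is not stated. Both tissues were digested with collagenase, the SI after additional incubations with EDTA, so tissue and isolation cannot be told apart.

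The first question was whether monocytes differ between the healthy tissues 1 day after entry. No gene passed the test in either direction: 0 of 57 genes were higher (0%) and 0 were lower (0%) in SI than in liver (limma, Benjamini-Hochberg adjusted, smallest adjusted p = 0.344). At an unadjusted p under 0.05 stood 2 genes (3.51% of those tested), Chil3 with the higher level in SI and Arg1 with the higher level in liver. A difference of more than 1 in size was seen in 9 genes (15.8%), 3 with the higher level in SI (Retnla, Chil3 and Cd44) and 6 with the higher level in liver (Arg1, Ccl7, Vegfa, Il1a, Cxcl10 and Il23a). The median difference over all 57 genes was 0.13 and the median size of a difference was 0.53. The 95% confidence intervals reached 1.31 to either side at the median over genes, and less than 1 in 10 genes. For most of the panel the interval thus included a doubling or more in at least 1 direction, and the absence of calls does not show that the tissues are alike.

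**Figure D1:**
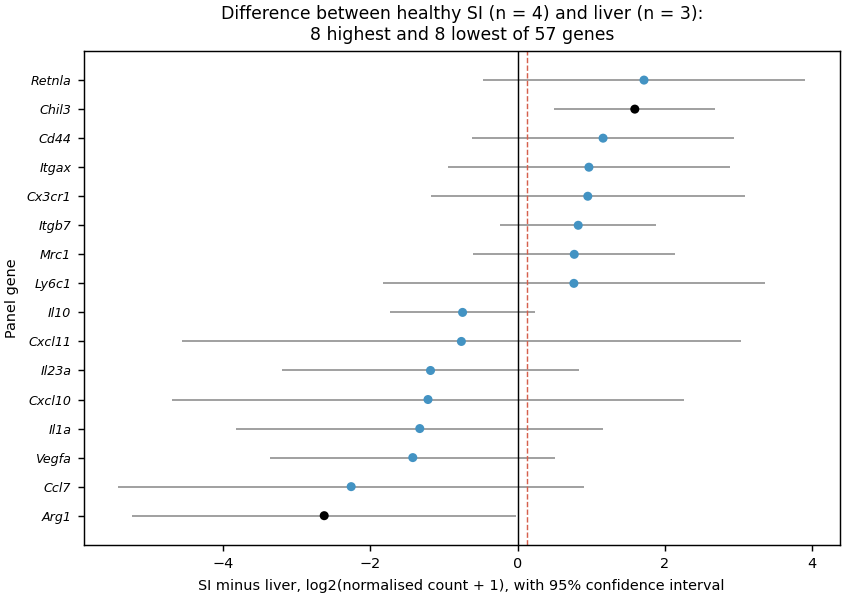
Difference between SI (n = 4) and liver (n = 3) of non-manipulated recipients for the 8 genes with the highest and the 8 with the lowest difference of 57, as SI minus liver on the log2(normalised count + 1) scale, with bars for the 95% confidence interval of the fit. Black points mark the 2 genes with an unadjusted p under 0.05, the dashed line is the median over all 57 genes, 0.13, and the other intervals shown include 0.

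The genes of regulation and alternative activation held the widest differences in both directions. Chil3, whose chitinase-like product Ly6C-high monocytes make in large amounts, was probed at positions 1197 to 1296 of its transcript. It stood at 17.15, 15.95, 15.97 and 15.74 in the SI libraries, against 14.38, 13.25 and 16.19 in the liver libraries. Liver library 3 lay within the range of SI, whereas the other liver libraries lay below every SI library. The difference was 1.59 ± 0.53 (SE), 3.02-fold, with a confidence interval of 0.50 to 2.69 and an adjusted p of 0.344 (limma). Without liver library 3 it was 2.38 and passed the test (adjusted p = 0.0053), and without liver library 2 it was 0.92 (adjusted p = 0.942).

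Arg1, which encodes arginase 1, an arginine-degrading enzyme linked to wound repair, was probed at positions 627 to 726. It stood at 9.21, 8.60, 8.19 and 7.82 in SI, against 10.72, 13.36 and 9.16 in liver. All liver libraries but library 3 lay above SI, and liver library 3 lay just under SI library 1. The difference was -2.63 ± 1.27 (SE, adjusted p = 0.833, limma), a 6.18-fold lower mean in SI. It was -1.49 without liver library 2, and DESeq2, though neither limma nor edgeR, called the gene (adjusted p = 0.0165).

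Vegfa encodes an angiogenic factor that hypoxia induces. It stood at 9.41, 10.74, 11.70 and 11.16 in SI, against 12.68, 12.40 and 11.44 in liver, with only liver library 3 inside the range of SI. The difference was -1.42 ± 0.94 (SE, adjusted p = 0.833). Il10, which encodes an anti-inflammatory cytokine on which intestinal macrophages depend, stood at 12.26, 11.32, 11.95 and 12.30 in SI, against 12.34, 13.84 and 11.93 in liver. Here liver library 2 stood apart from the other 6 libraries, and the difference of -0.75 ± 0.48 (SE, adjusted p = 0.833) was -0.18 without it.

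Retnla, which encodes a secreted protein of alternatively activated macrophages, had the widest positive difference, 1.72 ± 1.06 (SE, adjusted p = 0.833), and it came from 1 library. SI library 4 stood at 12.85, against 5.37, 5.26 and 5.76 in the other SI libraries and 5.77, 5.71 and 5.29 in liver. Outside SI library 4 these levels are near background, at 37.3 to 53.7 normalised counts. The background limit of the 7 libraries was 26.3 to 46.7 counts before scaling, and Retnla stood above it in 6 of 7. Without SI library 4 the difference was -0.13. Both count-based tests called Retnla (adjusted p = 0.0288 with edgeR and 3.3e-06 with DESeq2). Mrc1, the mannose receptor of tissue macrophages, stood at 6.83, 8.06, 6.56 and 6.14 in SI against 6.29, 5.79 and 6.30 in liver, with a difference of 0.77 ± 0.67 (SE). Outside SI library 2 the counts of Mrc1 were low, at 54.2 to 113 normalised counts. Of the 8 measured genes of this list 0 passed the test, and their median difference was 0.30, beside 0.13 over all genes.

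**Figure D2:**
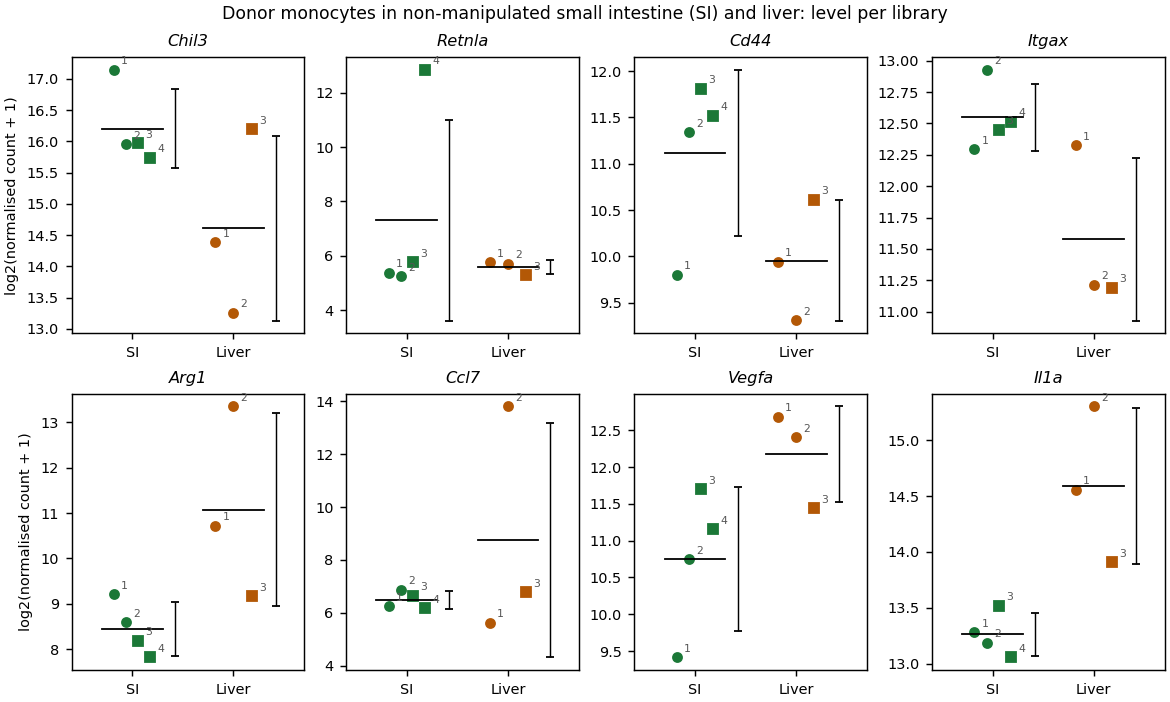
Level of 8 genes in each library of non-manipulated SI (left, n = 4) and liver (right, n = 3), as log2(normalised count + 1), with the library number beside each point. Lines are means, bars are SDs, and squares mark libraries deposited with a multiplier; Il1a is the gene without overlap, and single libraries carry the differences of Retnla and Ccl7.

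The pro-inflammatory cytokines all had the lower mean in SI, beside 22 of 57 over all genes. None passed the test (0 of 5 measured), and their median difference was -0.62, beside 0.13 over all genes. Il1a, which encodes the alarmin interleukin-1 alpha, was the single gene of 57 (1.75%) whose SI and liver libraries did not overlap. Its probe covers positions 226 to 325, and it stood at 13.28, 13.19, 13.52 and 13.06 in SI, against 14.56, 15.30 and 13.90 in liver. Every liver library lay above every SI library, and the SI libraries lay close together, with an SD of 0.19 against 0.70 in liver. The difference was -1.33 ± 1.21 (SE, adjusted p = 0.833, limma), where the standard error carries the spread of all 11 groups in the fit. With only the spread of these 7 libraries, the methods' t-test gave an unadjusted p of 0.0138 across the panel, which did not hold after adjustment over 57 genes (adjusted p = 0.599).

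Il1b, the secreted partner cytokine of the same receptor, stood at 14.79, 16.13, 15.71 and 15.56 in SI against 15.99, 16.32 and 14.81 in liver. Its libraries overlapped over nearly their whole range, and the difference was -0.16 ± 0.64 (SE), and 0.15 without liver library 2. Tnf, an early inflammatory cytokine, differed by -0.38 ± 0.60 (SE), with 14.08, 13.95, 15.06 and 15.37 in SI against 14.37, 15.43 and 15.17 in liver. Il6, a cytokine of the acute phase, stood at 6.14 to 6.26 in SI, and at 7.33, 7.23 and 5.92 in liver (difference -0.62 ± 0.88, SE). Il23a, which encodes the p19 subunit of interleukin-23, rested on liver library 1: it stood at 5.83, 6.53, 6.15 and 7.10 in SI, against 9.91, 5.76 and 7.09 in liver. The difference of -1.18 ± 0.98 (SE) was -0.02 without that library. Counts of Il6 and Il23a were low in SI, at 69.7 to 75.6 and 56.0 to 136 normalised counts. Both genes stood above background in all 7 libraries.

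Chemokine ligands direct other leukocytes to a tissue. Of 7 measured ligands on this list 0 passed the test, with a median difference of -0.05. Ccl7, a ligand of CCR2 that attracts monocytes, had the second widest negative difference, -2.26 ± 1.54 (SE, adjusted p = 0.833). It stood at 6.24, 6.87, 6.64 and 6.18 in SI, against 5.63, 13.82 and 6.78 in liver. Liver library 2 alone carried it, the difference without that library was 0.28, and DESeq2, though not edgeR, called the gene (adjusted p = 0.00022). Outside liver library 2 the counts of Ccl7 were low, at 48.5 to 116 normalised counts. Ccl2, the other main ligand of CCR2, was even in SI, at 12.14, 11.95, 11.87 and 12.32, and wide in liver, at 10.10, 13.46 and 12.27, with a difference of 0.12 ± 0.75 (SE). The neutrophil attractant Cxcl1 stood at 7.34, 8.10, 7.99 and 8.70 in SI against 7.58, 7.61 and 7.44 in liver (difference 0.49 ± 0.52, SE).

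The interferon-inducible ligands Cxcl9, Cxcl10 and Cxcl11 bind CXCR3 on T cells and natural killer cells, and their levels varied more between libraries of a tissue than between the tissues. Cxcl9 stood at 10.89, 11.72, 6.72 and 12.44 in SI, against 12.06, 11.60 and 9.32 in liver. Cxcl11 stood at 9.73, 11.10, 6.62 and 9.66 in SI, against 10.45, 12.56 and 7.11 in liver. Both genes were lowest in library 3 of each tissue. Cxcl10 stood at 15.47, 15.05, 14.28 and 12.78 in SI, against 15.73, 16.77 and 14.33 in liver, so that its lowest SI library was library 4, in which Cxcl9 was highest. The differences were -0.55 ± 1.68 for Cxcl9, -1.22 ± 1.69 for Cxcl10 and -0.76 ± 1.84 for Cxcl11 (SE). Without liver library 2 the difference in Cxcl10 was -0.64. Of the 5 measured interferon-related genes 0 passed the test (median difference -0.12).

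**Figure D3:**
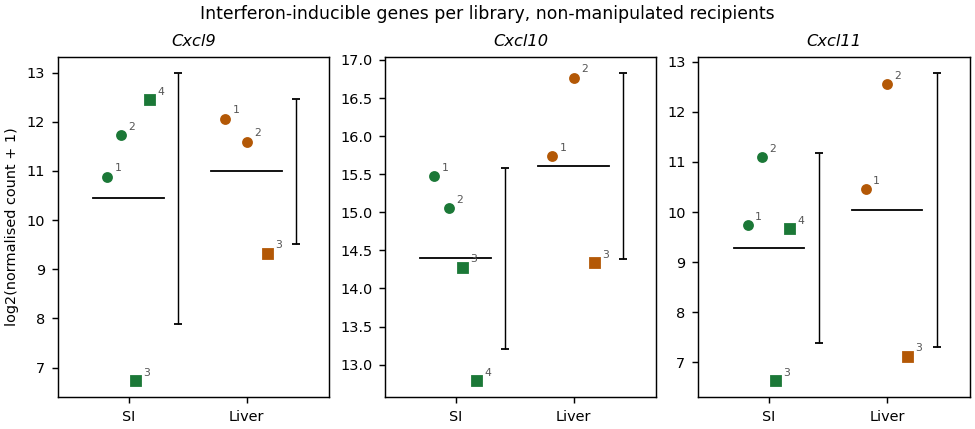
Level of Cxcl9, Cxcl10 and Cxcl11 in each library of SI (left, n = 4) and liver (right, n = 3) of non-manipulated recipients, as log2(normalised count + 1), with library numbers beside the points, lines for means and bars for SDs. Squares mark libraries deposited with a multiplier. Library 3 of each tissue was the lowest for Cxcl9 and Cxcl11, and SI library 4 the lowest for Cxcl10.

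The promoters of Cxcl9 and Cxcl10 are shown because these neighbouring genes on chromosome 5 are both known interferon targets, yet stood at opposite ends of the SI range in library 4. The windows are those of RefSeq on GRCm38.p6, 250 bases before to 50 bases after the start, at chr5:92328030-92328329 and chr5:92348840-92349139, both on the minus strand and written in the direction of transcription. Of 57 genes, 37 had a window in the table. The motifs, in which N is any base, were searched on both strands: the interferon-stimulated response element, taken as GAAA, NN and GAAA in a row, present in 3.44% of 32851 windows, and the NF-kappaB site, taken as GGGA, N, TT, N and CC in a row, present in 1.2%. Capitals mark the matches.
Cxcl9: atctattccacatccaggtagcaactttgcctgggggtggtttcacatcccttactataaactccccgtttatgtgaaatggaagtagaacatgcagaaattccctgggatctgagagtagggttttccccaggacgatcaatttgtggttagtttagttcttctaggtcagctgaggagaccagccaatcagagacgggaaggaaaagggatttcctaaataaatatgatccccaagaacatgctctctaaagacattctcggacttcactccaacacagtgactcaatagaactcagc
Cxcl10: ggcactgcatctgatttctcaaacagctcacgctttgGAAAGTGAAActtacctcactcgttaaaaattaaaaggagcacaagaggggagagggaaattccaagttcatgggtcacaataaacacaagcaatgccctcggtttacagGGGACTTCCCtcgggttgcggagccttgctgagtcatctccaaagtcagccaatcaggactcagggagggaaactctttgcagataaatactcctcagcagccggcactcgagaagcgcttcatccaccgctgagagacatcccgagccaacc
The Cxcl10 window held 1 match to each motif, with no overlap, and the Cxcl9 window held 0 matches to either, which says only that these letters are not in this window.

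Of the receptors for homing and adhesion 6 of 8 had the higher mean in SI, beside 35 of 57 over all genes. None passed the test (0 of 8), and their median difference was 0.75, beside 0.13 over all genes. The tally was 5 of 8 with TMM (21 of 57 over all genes), the total count (30 of 57) and the series matrix values (12 of 57). Itgax, which encodes the integrin CD11c, stood at 12.30, 12.93, 12.45 and 12.52 in SI, against 12.33, 11.22 and 11.19 in liver. Liver library 1 lay just above the lowest SI library, and liver libraries 2 and 3 lay below all of SI. The difference was 0.97 ± 0.93 (SE, adjusted p = 0.833), and as a sorting marker in SI this gene is not independent of the sort. Cx3cr1, the fractalkine receptor of maturing intestinal macrophages, stood at 9.20, 11.62, 11.26 and 11.18 in SI, against 9.30, 9.55 and 10.73 in liver. SI library 1 was the lowest of all 7, the other SI libraries were above all of liver, and the difference was 0.95 ± 1.03 (SE). Cd44, a receptor for hyaluronan, also had SI library 1 within the range of liver and the other SI libraries above it, with 9.80, 11.34, 11.81 and 11.52 in SI against 9.94, 9.31 and 10.61 in liver (difference 1.16 ± 0.86, SE).

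Itgb7 encodes the beta chain of the gut-homing integrin alpha4beta7. It stood between 13.82 and 15.02 in SI, against 13.54, 12.24 and 14.76 in liver, with a difference of 0.82 ± 0.52 (SE), which was 0.19 without liver library 2 and 1.44 without liver library 3. Ccr2 encodes a receptor by which monocytes leave the BM. In the study's competitive transfers, monocytes lacking it were fewer in healthy and inflamed SI, but not in liver. Ccr2 stood at 16.33, 17.07, 16.12 and 16.08 in SI, against 15.39, 15.41 and 16.39 in liver (difference 0.67 ± 0.64, SE). In both genes liver libraries 1 and 2 lay below all of SI while liver library 3 lay within it. Ccr7, which guides dendritic cells to lymph nodes, was high in liver library 1 alone, at 14.12 against 10.54 and 11.36 in the other liver libraries and 10.76 to 11.87 in SI. Its difference of -0.68 ± 0.69 (SE) was 0.37 without that library, the same library that carried Il23a.

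Of the Ly6C-high monocyte markers, 0 of 4 measured passed (median difference 0.72). Ly6c1, a member of the Ly6C family whose transcript is near-identical to that of Ly6c2, so that its counts may include Ly6c2 transcripts, stood at 14.11, 10.98, 10.49 and 11.21 in SI, against 9.47, 11.42 and 11.90 in liver. SI library 1 held the highest Ly6c1 and Chil3 of all 7 libraries and the lowest Cx3cr1. The difference in Ly6c1 was 0.77 ± 1.26 (SE), and -0.04 without SI library 1. Of the mature macrophage markers 0 of 8 measured passed the test. All 8 had a positive difference, with a median of 0.56, beside 35 of 57 over all genes, but the tally moved with the scaling: 6 of 8 were positive with TMM (21 of 57 over all genes) and 3 of 8 with the series matrix values (12 of 57). Among them Adgre1, which encodes a classical surface antigen of mouse macrophages, stood at 9.87, 10.97, 11.09 and 10.79 in SI, against 9.80, 10.53 and 9.74 in liver (difference 0.66 ± 0.80, SE). H2-Ab1, a chain of MHC class II that presents antigen to T cells, was at 17.04, 16.67, 16.42 and 16.49 in SI, against 16.51, 15.89 and 15.81 in liver (difference 0.59 ± 1.51, SE). The costimulatory ligands Cd80 and Cd86 differed by -0.01 ± 0.55 and -0.10 ± 0.57 (SE), and 0 of 3 genes of antigen presentation and costimulation passed (median -0.01).

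Of 10 measured genes that sense microbes and pass on their signals 0 passed (median difference 0.14), with differences between -0.52 for Nod2 and 0.71 for Tlr8. Cd14, the co-receptor for bacterial lipopolysaccharide, stood at 15.67, 15.76, 16.58 and 15.87 in SI, against 16.75, 16.61 and 15.85 in liver (difference -0.43 ± 0.63, SE). Trem1, which amplifies inflammatory signals of myeloid cells, and Trem2, a receptor for lipids, differed by 0.21 ± 0.77 and 0.58 ± 1.00 (SE), each with libraries spread over more than 1 unit in either tissue. Tlr8 and Tlr2, Toll-like receptors for RNA and lipoproteins, differed by 0.71 ± 0.57 and 0.61 ± 0.58 (SE). Counts of Tlr2 were low, at 46.7 to 132 normalised counts. Of 9 transcription factors 0 passed (median 0.20). Irf4 and Irf5, factors of macrophage polarisation, differed by 0.59 ± 0.59 and 0.32 ± 0.37, and Cebpb, a factor of the acute response, by -0.57 ± 0.54 (SE).

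SI libraries 3 and 4 and liver library 3 were deposited after multiplication by a constant per lane, and the other 4 were not. Between the libraries with a multiplier (2 SI, 1 liver) Chil3 differed by -0.33, and between those without (2 SI, 2 liver) by 2.73, so its difference did not hold within both sets. For Arg1 the values were -1.16 and -3.14, for Il1a -0.62 and -1.70, for Vegfa -0.02 and -2.46, for Ccl7 -0.37 and -3.17, for Itgax 1.29 and 0.84, for Cd44 1.05 and 0.94, for Cx3cr1 0.49 and 0.99, and for Retnla 4.01 and -0.43, with the multiplied set first in each. Of the 57 genes 23 kept their sign in both sets and 34 did not. Of the 9 genes with a difference over 1, 7 kept it. These 9 were chosen by their difference over the same libraries, so their share is no independent check. With the multiplier as a term in the fit 0 genes passed.

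Whether the contrast between SI and liver is the same in manipulated recipients was tested as a difference of differences, healthy minus manipulated. Of 57 genes 3 were lower (5.26%) and 0 were higher (0%) by this test. Each of the 3 had a higher level in every SI library than in every liver library of manipulated recipients, whereas the libraries of healthy SI and liver overlapped. The 3 were called on these same values. Genes that were not called, among them Il1a, Il6 and Ccl7, also had every manipulated SI library above every manipulated liver library, so this separation is not particular to the 3. The test of the difference shares its healthy libraries with the first comparison. For Il10 the contrast was -0.75 in healthy and 2.76 in manipulated recipients, a difference of -3.50 ± 0.71 (SE, adjusted p = 0.0024, limma). The manipulated SI libraries stood at 13.83, 14.30, 14.03, 13.45 and 13.56 and the manipulated liver libraries at 10.94 and 11.21, without overlap.

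For Cxcl1 the contrast was 0.49 in healthy and 3.79 in manipulated recipients, a difference of -3.30 ± 0.76 (SE, adjusted p = 0.0062). Manipulated SI stood at 11.48, 11.06, 12.66, 12.12 and 11.48, and manipulated liver at 8.47 and 7.46, near the levels of both healthy tissues. For Il23a the contrast was -1.18 in healthy and 4.29 in manipulated recipients, a difference of -5.47 ± 1.45 (SE, adjusted p = 0.0174). Manipulated SI stood at 9.28, 10.41, 11.15, 12.87 and 7.49, and manipulated liver at 5.70 and 6.20. The call of Il23a ended without healthy liver library 1 (adjusted p = 0.0632), without manipulated liver library 1 (adjusted p = 0.121) and with the series matrix values (adjusted p = 0.0553), while Il10 and Cxcl1 passed under every alternative that was run. Only 2 libraries stand for manipulated liver, and their spread is taken from the other groups.

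**Figure D4:**
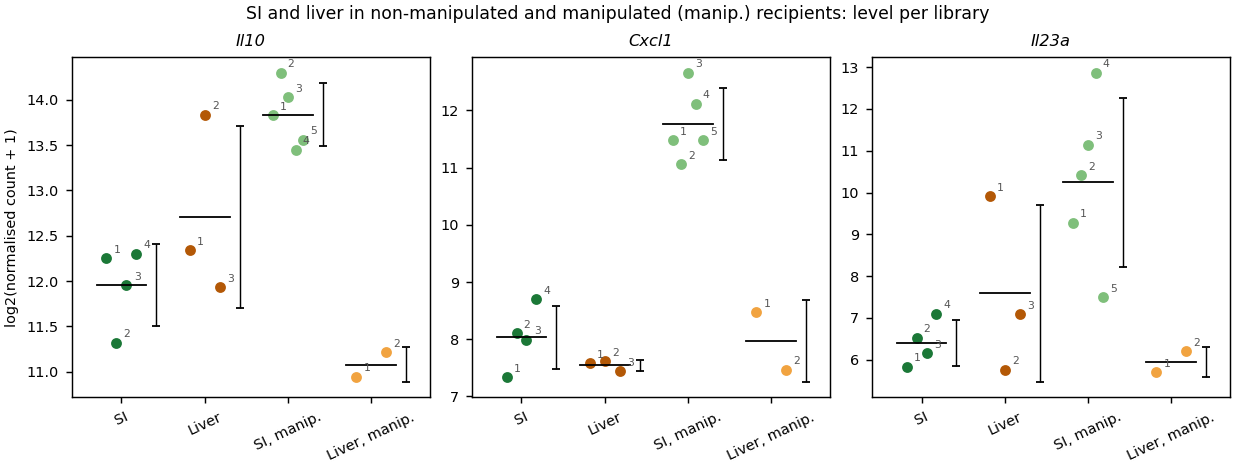
Level of Il10, Cxcl1 and Il23a in each library of SI and liver from non-manipulated recipients (n = 4 and 3) and from manipulated recipients (manip., n = 5 and 2), as log2(normalised count + 1), with library numbers, lines for means and bars for SDs. Manipulated SI lies above manipulated liver in all libraries of all 3 genes, whereas the healthy tissues overlap.

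The mean of healthy SI and liver was also set against the mean of spleen and BM, tissues that were not digested with collagenase, so that tissue and digestion cannot be told apart. This comparison was added after the values were seen, and it shares its SI and liver libraries with the first. A contrast of means does not show that each tissue differed, nor that SI and liver are alike. The median size of a difference over all 57 genes was 0.53 between SI and liver, 0.46 between SI and spleen and 0.61 between SI and BM. It was 0.82 between liver and spleen, 0.83 between liver and BM and 0.43 between spleen and BM. Of 57 genes 12 were higher (21.1%) and 3 were lower (5.26%) in SI and liver. The higher genes were Il1a, Vegfa, Il1b, Cd14, Arg1, Ccr7, Ccl2, Trem1, Cd86, Ccl22, Il10 and Cebpb, and the lower ones included Itgb7 and Nfkb1. The calls of Il1a, Il1b, Vegfa, Cd14, Il10, Ccr7 and Cd86 held under all 30 alternatives that were run, and each of the other 8 called genes lost its call under at least 1, Itgb7 under 19, Cebpb under 18 and Trem1 under 14. Tested tissue by tissue in the same fit, 4 genes were higher in SI than in spleen (7.02%), 6 higher in SI than in BM (10.5%), 4 higher in liver than in spleen (7.02%) and 8 higher in liver than in BM (14%), while 0 (0%) or 1 (1.75%) were lower in each pair. The genes higher in all of these pairs were 4: Il1a, Il1b, Vegfa and Cd14. The 7 libraries of SI and liver all lay above the 6 of spleen and BM in 5 of 57 genes (8.77%), each among the 12 higher. They all lay below in 1 of 57 (1.75%), Nfkb1.

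Il1a showed the widest of these differences, 6.39 ± 0.89 (SE, 83.9-fold, adjusted p = 4.4e-06, limma). Against the SI and liver levels given above, spleen stood at 6.51, 12.69 and 6.48 and BM at 6.47, 6.60 and 6.46, so that spleen library 2 approached the lowest SI library. Without it the difference was 7.42 (172-fold), edgeR gave 5.17 (35.9-fold) and background subtraction 6.82 (113-fold). The size of the fold is thus loosely set. Il1a stood above background in all 6 spleen and BM libraries, but outside spleen library 2 its level there was low. Il1b differed by 4.03 ± 0.47 (SE, 16.4-fold, adjusted p = 3.4e-07), with spleen at 11.24, 13.62 and 11.94 and BM at 11.54, 11.36 and 9.87. Vegfa differed by 4.78 ± 0.69 (SE), with spleen at 8.03, 6.08 and 6.73 and BM at 7.24, 6.35 and 5.71. Its probe was not above background in spleen library 2 and BM library 2, and with background subtracted the difference was 5.37. Cd14 differed by 2.96 ± 0.46 (SE, 7.81-fold), with spleen at 12.30, 14.37 and 13.09 and BM at 13.18, 13.33 and 13.06. In each of these 4 genes every SI and liver library lay above every spleen and BM library.

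Arg1 differed from spleen and BM by 2.81 ± 0.93 (SE, adjusted p = 0.0265), with spleen at 6.75, 7.63 and 6.66 and BM at 6.76, 7.28 and 6.66. Its call ended without liver library 2 (adjusted p = 0.108), with the series matrix values (0.0717), and without spleen library 1 (0.0503) or 3 (0.0586) or BM library 2 (0.0512) or 3 (0.0556). The integrin chain Itgb7 was lower in SI and liver, with a difference of -1.02, as was the NF-kappaB subunit Nfkb1, with -0.83. The count of 3 lower genes became 0 without BM library 2, and 1 without liver library 2 or spleen library 2.

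**Figure D5:**
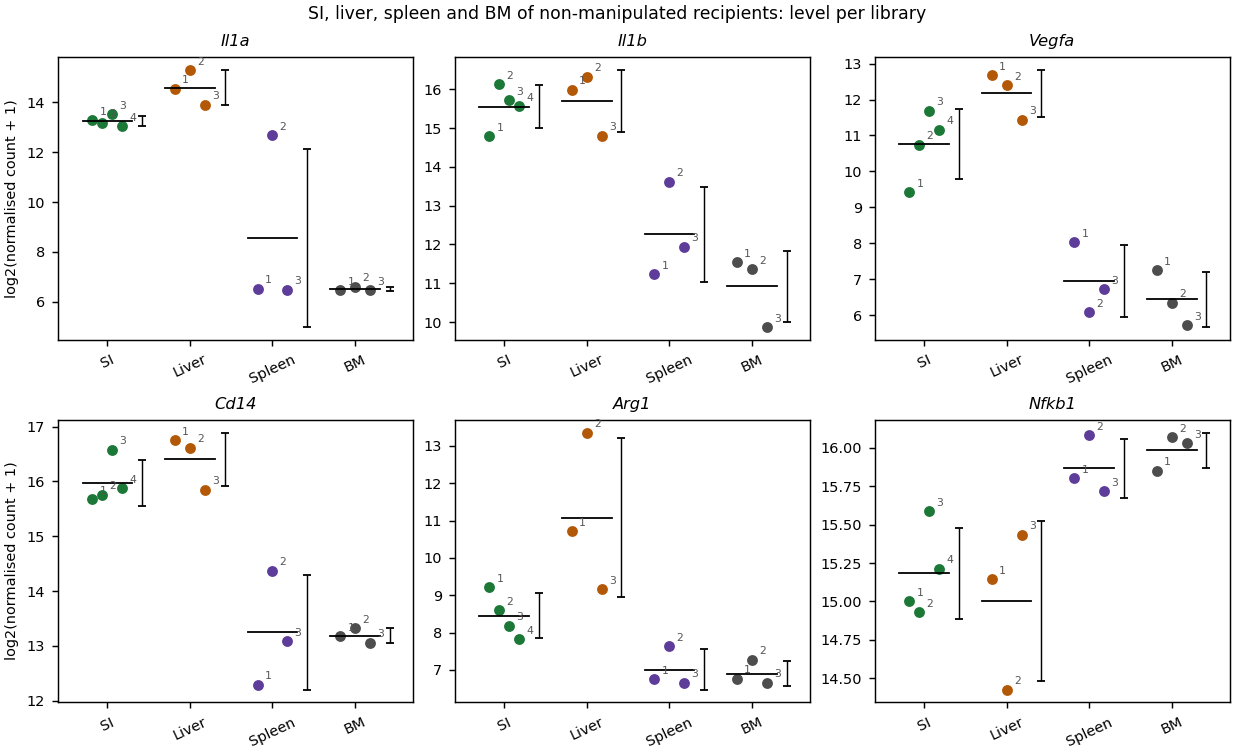
Level of Il1a, Il1b, Vegfa, Cd14, Arg1 and Nfkb1 in each library of SI (n = 4), liver (n = 3), spleen (n = 3) and BM (n = 3) of non-manipulated recipients, as log2(normalised count + 1), with library numbers, lines for means and bars for SDs. All SI and liver libraries lie above all spleen and BM libraries for the first 5 genes and below them for Nfkb1.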

How the data were processed

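RNA of 100 sorted cells per library was reverse transcribed, pre-amplified with gene-specific primers and counted on nCounter. The deposited raw table holds counts of barcodes in 15 libraries. The other 18 were deposited as a signal: each lane's counts times a constant, for a reason not given in the sources used here. Dividing by it gave whole numbers for 100% of 1141 values (tolerance 0.002). The deposited series matrix holds a score, the table's values times a factor per lane, and served as an alternative. Counts follow PCR and are not independent molecules, so the spread between libraries sets the precision. RefSeq transcripts identified 69 of 72 genes, and symbols the other 3. Counts above the negative controls' mean plus 2 SD in at least 2 libraries were required, which kept 57 genes.

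limma 3.58.1 (R 4.3.3) fitted 11 group means over 33 libraries, two-sided, with Benjamini-Hochberg adjustment over 57 genes and a threshold of 0.05. The script was checked on simulated data. Alternatives covered scaling (TMM, median-of-ratios, total count, house-keeping genes without each in turn), test (edgeR 4.0.16, DESeq2 1.42.0, the methods' t-test), pseudocounts of 0.5 and 10, filter, background, samples in the fit, replicate block, multiplier, and each library left out. Genes named were the 8 highest and 8 lowest differences, up to 3 of each list (results for some genes are not reported here), a fixed set discussed in the study, and genes without overlap; Nod2, Stat6 and the calls against spleen and BM were named after their values were seen. Members and lists were chosen with earlier results of these data known; the comparison with spleen and BM was added after the values were seen.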

Additional observations from a re-analysis of the deposited data

Results flagged for a closer look

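Among the 4 healthy SI libraries, 3 genes had a library far from the others by Dixon's criterion. Retnla stood at 12.85 in SI library 4, against 5.26 to 5.76, near background, in the others. Chil3 stood at 17.15 in SI library 1, against 15.74 to 15.97 in the others. Stat6, a transcription factor of interleukin-4 signalling that no rule named, stood at 14.13 in SI library 2, against 13.64 to 13.66. In all 63 sets of values were examined, and chance marks about 1 in 20.

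The contrast between SI and liver differed between healthy and manipulated recipients, by the test of that difference itself, for Il10 (-3.50), Cxcl1 (-3.30) and Il23a (-5.47).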

How the results depend on the processing

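Of 57 genes, 0 passed between healthy SI and liver under most alternatives. The exceptions were edgeR (1 higher), DESeq2 (1 higher, 2 lower), the methods' t-test unadjusted (1 higher, Itgax, and 1 lower, Il1a; 0 after adjustment) and the fits without 1 library, which gave 0 to 1 higher and 0 lower. edgeR and DESeq2 had 6 and 7 genes at an unadjusted p under 0.05. The median of all genes moved by -0.27 with TMM, -0.12 with median-of-ratios factors, 0.13 without Actb and -0.61 with the series matrix. Of the named genes these changed sign: Ccl2 to -0.14 with TMM, -0.48 with the series matrix and -0.42 with edgeR and with DESeq2; Trem1 to -0.063 with TMM and -0.40 with the series matrix; and, with the series matrix, Cxcl1 to -0.12, H2-Ab1 to -0.022, Irf4 to -0.016, Irf5 to -0.29 and Trem2 to -0.024. Cd86 changed to 0.026 without Actb, and Cxcl9 to 0.032 with edgeR and 0.031 with DESeq2. Cd80 changed to 0.12 without Actb, 0.0017 with edgeR and DESeq2, 0.00252 with the multiplier term, and 0.18 and 0.020 with the replicate number as a fixed and as a random block.

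Leaving out single libraries gave -0.60 to 0.15 for Il1b, -0.038 to 1.25 for Ly6c1, -0.30 to 0.34 for Cd80, -0.32 to 0.20 for Cd86, -2.23 to 0.49 for Cxcl11, -1.39 to 0.69 for Cxcl9, -0.27 to 0.54 for Trem1, -0.13 to 2.40 for Retnla, -0.80 to 0.88 for Ccl2, -1.42 to 0.37 for Ccr7, -3.82 to 0.28 for Ccl7, -0.24 to 1.48 for Trem2 and -0.114 to 0.0137 for the log2 house-keeping level.

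Same-numbered SI and liver libraries correlated at -0.08, 0.31 and 0.38 in their deviations from the group means. Libraries with unlike numbers correlated between -0.38 and 0.13, so the values for numbers 2 and 3 were the highest of all. Pairing had required every same-numbered pair to correlate, and number 1 did not, so the numbers were not taken to pair the samples. With the replicate number as a block, fixed or random, 0 genes passed, and Retnla changed to -0.13 with the fixed block. For the difference between healthy and manipulated recipients the random block gave 5 lower genes, edgeR 5, and DESeq2 8 with 1 higher; without single libraries 2 to 6 were lower and 0 to 2 higher. The lowest count, 2, came without manipulated liver library 1, the highest, 6, without manipulated liver library 2, and 5 lower and 2 higher without healthy liver library 3. For SI and liver against spleen and BM, 7 genes were higher with the series matrix, 5 lower with median-of-ratios factors, and 1 lower with the total count, without Actb or without Gapdh; without single libraries 8 to 12 were higher and 0 to 4 lower. The causes were not tested. Groups of 3 and 4 libraries, pre-amplified from few cells, limit all comparisons.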
